A study of Sus scrofa with 19 samples.

Results

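Ion pumps, ion channels and aquaporins were followed in the lining of the uterus, the endometrium, in gilts (young female pigs). The genes were those with a gene symbol of the sodium pump, calcium pump, vacuolar proton pump, copper pump, potassium, calcium, sodium, chloride and transient receptor potential (TRP) channel, ryanodine receptor, inositol trisphosphate receptor, FXYD, CFTR or aquaporin families, reached through the RefSeq accession of an array probe and without ATP2B1 and FXYD2. Such symbols numbered 53, of which 46 had a probe well above background on at least 4 of the 19 arrays, out of 3010 such genes with a symbol in all. By their symbols alone, the 46 were 14 potassium channel genes, 9 aquaporins, 5 TRP channels and 5 subunits of the vacuolar proton pump. A further 4 had symbols of the sodium pump and FXYD families, and 4 were chloride channel genes. The remainder were 3 subunits of voltage-gated calcium channels, 1 calcium pump and 1 calcium release channel. The other 7, AQP4, AQP7, ATP2A1, KCNA10, KCNH6 and TRPC5 among them, did not reach that level and are not described further. No copper pump, voltage-gated sodium channel or inositol trisphosphate receptor gene was among those named by the rule.

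The sodium pump uses ATP to move sodium out of epithelial cells and potassium in, and the gradient it builds drives salt across the epithelium through channels such as CFTR, with water following through aquaporins. In the uterus these proteins set the volume and the salt content of the fluid in the lumen, in which an early conceptus is bathed before it attaches. Calcium pumps, calcium release channels and TRP channels set calcium inside cells, and potassium channels set the membrane voltage against which ions move.

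All animals were crossbred gilts aged 8 months whose uterine horns were both cannulated and infused on days 11 to 12 after the onset of oestrus, over 24 h with 4 h between infusions. A randomly chosen horn of each of 6 treated gilts was given 200 µg of prostaglandin E2 (PGE2) with 33.3 µg of estradiol (E2) in each infusion (hormone horns, 6 arrays), and the opposite horn was given vehicle (5 mL of 1% ethanol in saline) alone (placebo horns, 5 arrays, since for gilt 40 only the hormone horn was analysed here). In 4 control gilts both horns received vehicle, which gave 8 arrays, 4 marked L and 4 marked P in the labels, which do not say what these letters mean. In treated gilts all 5 placebo horns were marked L and all hormone horns but that of gilt 40 were marked P, so in each of the 5 pairs of horns the treatment and the mark cannot be told apart. Every horn in the series was therefore cannulated and infused, the gilts were not pregnant, and PGE2 and E2 were given only together.

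The scanner files held 45220 spots per array, of which 79.1% to 88.4% of those that are not controls were well above background. Levels are given as the log2 signal relative to the 75th percentile of the same array, so that 0 marks the brightness of that percentile, and the 75th percentile itself was 597 to 983 units of linear intensity. The arrays of a gilt shared a slide. Gilts 9 and 36 were on the same slide and each other gilt had its own, so for those others an effect of the gilt and one of the slide cannot be told apart. Of 10 epithelial markers, 4 were measured, and EPCAM was well above background on all 19 arrays. The P horn of control gilt 9 stood apart: the median of its 5 measured smooth muscle markers was 2.23 log2 units above the mean of control gilts, against -0.72 to 0.71 in the other 7 control arrays, and that of its 4 epithelial markers was -0.68, against -0.12 to 0.25. In bulk tissue, fewer cells of a type and less RNA per cell cannot be told apart.

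Hormone horns were first set against control gilts, to see how these genes stood in endometrium given PGE2 and E2. Those that rose were 4, each with a different role: AQP1, a water channel of small blood vessels and red cells, by 1.40 ± 0.35 log2 units (2.63-fold, adjusted p = 0.0168), KCNN3, a calcium-activated potassium channel of small conductance, by 1.69 ± 0.44 (3.24-fold, adjusted p = 0.0202), FXYD3, a small membrane protein that binds and modulates the sodium pump, by 1.32 ± 0.35 (2.49-fold, adjusted p = 0.0233), and CLCN5, a chloride-proton exchanger of endosomes, by 0.86 ± 0.25 (1.82-fold, adjusted p = 0.0301). These are differences ± SE from limma over 6 hormone and 8 control arrays, with p-values adjusted over all probes tested (Benjamini-Hochberg) and a threshold of 0.05. Of the 46 genes 4 passed upwards and 0 passed downwards, or 8.7%, against 11.6% of the 39093 probes tested (6.72% upwards) and 15.1% of the 3010 genes with a symbol, so the share was not above that of the arrays as a whole, and 11 of the 46 had an unadjusted p under 0.05 (23.9%, against 27.1% of all probes). The median difference of the 46 genes was -0.016, against 0.17 for genes with a symbol and 0.0097 for all probes, and 34 of the 46 lay within 0.5 of 0. The split of calls by direction moved with the scaling: 4 rose and 2 fell after quantile normalization, and 3 rose and 4 fell when each array was centred on its RefSeq probes, a scaling that moved the median of all probes to -0.21. Without control gilt 14, 0 of the 46 genes passed, and without control gilt 9 or 28 1 gene did, while 4.48%, 3.72% and 4.13% of all probes passed without gilts 9, 14 and 28. Without treated gilt 44 AQP1 and KCNN3 passed, and without gilt 36 7 genes did, AQP6, AQP11 and RYR1 besides the 4. With a term for how RefSeq probes differed from contig probes on each array, 0 genes and 0 probes passed, and AQP1, KCNN3, FXYD3 and CLCN5 differed by 1.08, 1.63, 0.86 and 0.64 (adjusted p = 0.974 for each). That offset did not overlap between the groups, at 1.85 to 2.09 log2 units in control arrays and 2.16 to 2.50 in arrays of treated gilts. With the 3 scan days of the file headers as a term, AQP1, KCNN3, FXYD3 and CLCN5 passed at 1.45, 1.62, 1.28 and 0.83, and with slide as the block at 1.31, 1.85, 1.36 and 0.80. On the 1 slide that held a control gilt and a treated gilt, gilts 9 and 36, the differences were 1.28, 2.22, 1.32 and 0.82. Each sets the hormone horn of 1 gilt against the mean of both horns of 1 other. For FXYD3 the horns of gilt 9 stood at 3.42 (L) and 1.74 (P), and the hormone horn of gilt 36 at 3.89, so its difference rests largely on that P horn.

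**Figure D1:**
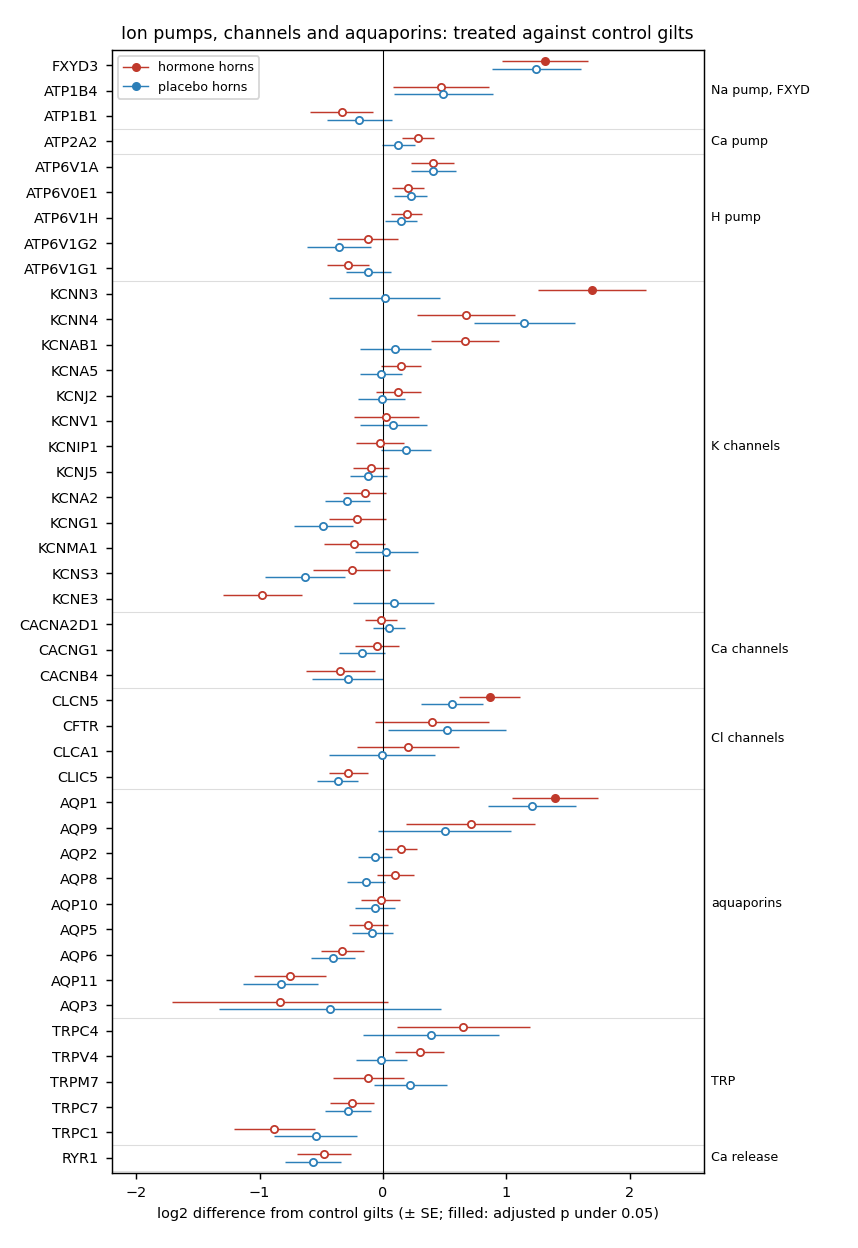
Each row is 1 of 44 of the 46 genes, grouped by role, and each point is its log2 difference from control gilts with its SE, for the 6 hormone horns and the 5 placebo horns of treated gilts, filled where the adjusted p is under 0.05. The 4 filled points are those of hormone horns for AQP1, KCNN3, FXYD3 and CLCN5, and most other genes lie within 0.5 log2 units of 0.

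Placebo horns of treated gilts received vehicle only, as control horns did, in an animal whose opposite horn received hormones. FXYD3 and AQP1 differed from control gilts there by 1.24 ± 0.36 and 1.21 ± 0.36, short of the threshold (limma adjusted p = 0.0551 and 0.0578), and next came KCNN4, a calcium-activated potassium channel of intermediate conductance, at 1.15 ± 0.41 (adjusted p = 0.104). None of the 46 genes passed in limma (0 of 46, against 4.42% of all probes and 4.49% of genes with a symbol), and 9 had an unadjusted p under 0.05 (19.6%, against 23.9% of all probes). The comparisons of hormone horns and of placebo horns share the same 8 control arrays. How many of all probes passed in placebo horns depended on the fit. With 1 mean per control gilt in place of its arrays, 0 of 39097 did. Only 14 passed with just the compared groups in the fit, and 14 with the horn mark as a term. Leaving out control gilts 9, 14 and 28 gave 0.322%, 0.087% and 0%. RefSeq centring, no replicate block and slide as the block gave more, at 10.4%, 9.13% and 12.8%. KCNN3 stood at 0.014 ± 0.45 in placebo horns, beside its 1.69 in hormone horns.

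Set against the placebo horn of the same gilts, the hormone horn showed what differed between the horns of one animal, of which the hormone horn was the one marked P in all 5 pairs. KCNN3 was higher by 1.68 ± 0.31 (3.20-fold) and KCNE3, an accessory subunit of voltage-gated potassium channels, lower by 1.07 ± 0.22 (2.09-fold), each in 5 of 5 gilts, but neither passed (limma adjusted p = 0.0779 and 0.103). None of the 46 genes passed in limma, against 0.00256% of 39096 probes, which is 1 probe, and 6 genes had an unadjusted p under 0.05 (13%, against 9.92% of all probes). The sign was the same in all 5 gilts for 4 genes, KCNN3 and KCNAB1 upwards and KCNE3 and KCNMA1 downwards, or 8.7% of the 46, against 7.73% of all probes. Between the P and L horns of control gilts 0 of 46 passed and 0 had an unadjusted p under 0.05 in limma, against 0% and 2.39% of all probes. The horn difference of treated gilts minus that of control gilts gave 0 passes and 4 genes (8.7%) with an unadjusted p under 0.05, against 0% and 3.24% of all probes, with KCNN3 at 1.56 ± 0.47 and KCNE3 at -1.18 ± 0.34.

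Among the genes of the sodium pump, FXYD3 stood at 1.74, 3.24 and 3.47 in control arrays (lowest, median and highest of 8) and at 3.61, 4.21 and 4.96 in hormone horns. Its levels in the placebo horns of gilts 36, 38, 41, 44 and 47 were 4.16, 4.73, 3.37, 4.02 and 4.43. Every hormone horn lay above every control array, as did 4 of 5 placebo horns, and the lowest value of all was that of the P horn of control gilt 9. A second FXYD3 probe rose by 1.52 (adjusted p = 0.0211) and also passed in placebo horns, at 1.48 (adjusted p = 0.0477). Of the epithelial markers, EPCAM, CDH1 and CLDN4 passed upwards in both hormone and placebo horns and KRT8 did not (3 of 4), and their median ran from -0.68 to 0.25 in control arrays, 0.40 to 0.93 in placebo horns and 0.64 to 1.07 in hormone horns. Their part in the FXYD3 result was not tested. The calls of these markers and of the second FXYD3 probe in placebo horns ended with 1 mean per control gilt, where 0 probes passed. FXYD3 did not pass without gilt 14, 28, 38 or 44 (adjusted p = 0.063, 0.061, 0.0574 and 0.0501), nor within a scan day, where its differences were 1.44, 1.22 and 1.27. Without the P horn of control gilt 9 FXYD3 differed by 1.08 in hormone horns (adjusted p = 0.0117) and by 1.01 in placebo horns, where it then passed (adjusted p = 0.0461).

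ATP1B1, the subunit that carries the pump to the membrane, differed by -0.33 ± 0.26 (adjusted p = 0.426), and ATP1B4, of the same subunit family by its symbol, overlapped between groups.

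ATP2A2, the pump that returns calcium to the endoplasmic reticulum, stood at 1.89, 2.15 and 2.33 in control arrays and 2.17, 2.41 and 2.69 in hormone horns on its brightest probe, with values of 2.36, 2.24, 2.28, 2.04 and 2.49 in placebo horns. The groups overlapped, and the difference of 0.28 ± 0.13 did not pass (adjusted p = 0.169). The other 5 probes of ATP2A2 gave 0.48 to 0.65 and 4 of them passed, so the call depended on the probe. With the mean of all its probes ATP2A2 was higher by 0.52 (adjusted p = 0.0211).

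None of the 5 measured subunits of the vacuolar proton pump, which acidifies endosomes and lysosomes, passed in any comparison, and their differences in hormone horns ran from -0.28 to 0.40. The highest was ATP6V1A, its catalytic subunit, at -0.92, -0.30 and 0.01 in control arrays and -0.39, 0.06 and 0.39 in hormone horns. The groups overlapped (0.40 ± 0.17, adjusted p = 0.14). The lowest was ATP6V1G1, a subunit of the pump's stalk, at -0.28 ± 0.17 over 11 arrays, since its spot carried an outlier flag on the other 8, and its second probe gave 0.083.

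KCNN3 lets potassium out of cells when calcium rises and is known to damp contraction of the uterine muscle. In control arrays KCNN3 stood at -4.16, -3.70 and -3.14. In the placebo horns of gilts 36, 38, 41, 44 and 47 KCNN3 was at -2.99, -2.65, -3.54, -3.79 and -5.17, and in the hormone horns of the same gilts at -1.23, -1.89, -2.46, -0.59 and -3.16, with -2.88 in gilt 40. Hormone horns were thus high in gilts 44 and 36, and the hormone horn of gilt 47 lay within the control range. The placebo horn of gilt 47 was the lowest of all arrays. Within gilts the hormone horn exceeded the placebo horn by 1.76, 0.76, 1.07, 3.20 and 2.01, while the P horn of control gilts 9, 14, 28 and 46 differed from the L horn by 0.62, 0.12, 0.033 and -0.29. KCNN3 was one of 4 genes to pass against control gilts, but not without gilt 9, 14 or 28 (adjusted p = 0.0511, 0.0619 and 0.0782), and within scan days its differences were 2.54, 1.19 and 1.23. Between horns, of the alternatives run, it passed only after quantile normalization (1.61, adjusted p = 0.0478). Of 5 smooth muscle markers 0 passed, their median difference between hormone and placebo horns was 0.50, and their median ran from -0.78 to 0.24 in placebo and 0.027 to 1.02 in hormone horns. Their part in the KCNN3 result was not tested.

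KCNE3 changes how its partner potassium channels open and supports chloride secretion in gut epithelium. Control arrays stood at 0.78, 1.29 and 2.45 and hormone horns at -0.20, 0.55 and 0.75, so that every hormone horn lay below every control array. Placebo horns of gilts 36, 38, 41, 44 and 47 stood at 0.92, 1.34, 1.79, 0.96 and 2.58, within the control range except for gilt 47. KCNE3 differed from control gilts by -0.98 ± 0.32 (adjusted p = 0.0528) and within gilts by -1.12, -0.79, -1.24, -0.38 and -1.83. It passed downwards against control gilts under 10 of 30 alternatives, among them quantile normalization, RefSeq centring and leaving out the P horn of control gilt 9 (-1.07, adjusted p = 0.0441), and did not under the others, with adjusted p over all 30 from 0.00791 to 0.974. With scan day as a term KCNE3 differed by -0.90 (adjusted p = 0.0541), within scan days by -0.90, -1.28 and -0.37 (adjusted p = 0.238, 0.203 and 0.942), and without the hormone horn of gilt 36 by -0.92 (adjusted p = 0.0913). The hormone horns stood outside the control range for 3 genes in all, AQP1 and FXYD3 above it and KCNE3 below it, or 6.52% of the 46, against 6.92% of all probes. The 4 probes of KCNE3 gave -0.26 to -0.98 against control gilts, none passing. Between horns they gave -1.07 on the probe used, -1.03 and -1.02 on dimmer ones, and -0.036 on the remaining probe. That last probe followed the probe used poorly (r = 0.318).

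**Figure D2:**
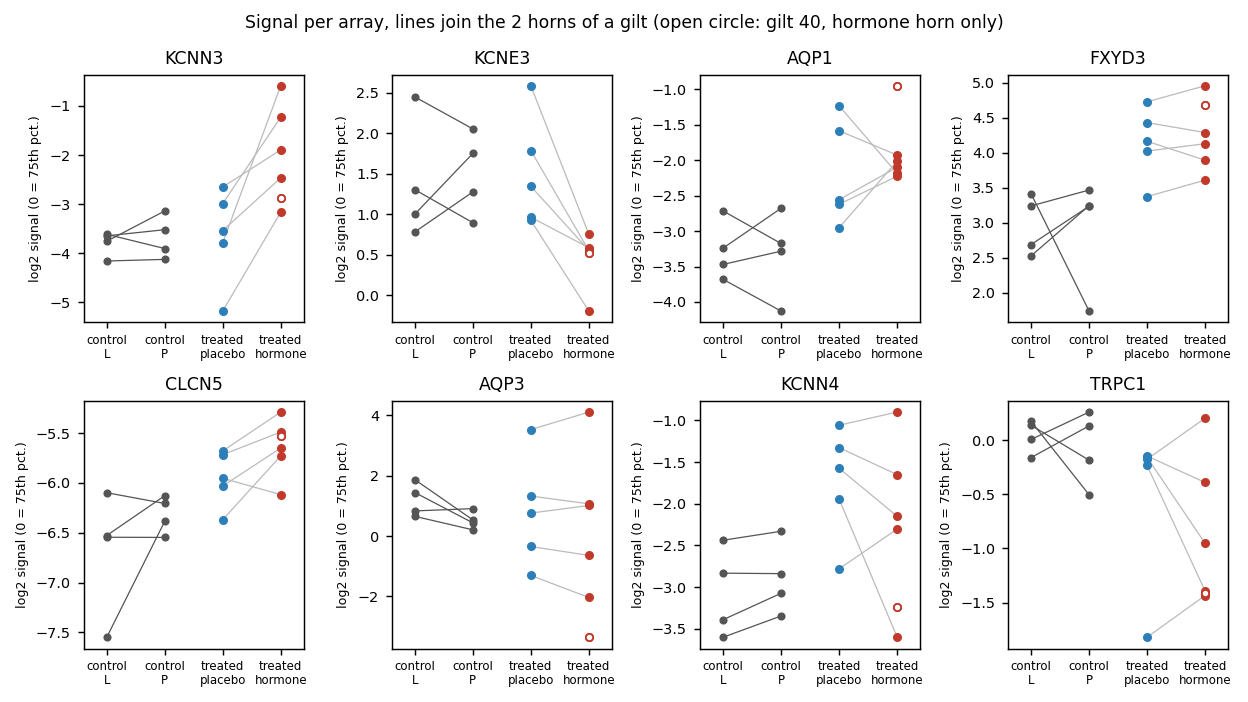
Log2 signal (0 is the 75th percentile of the array) of 8 genes in every array, by group, with lines joining both horns of a gilt and an open circle for gilt 40. KCNN3 climbs and KCNE3 drops from placebo to hormone horn in 5 of 5 gilts, AQP1 and FXYD3 lie above all control arrays in every hormone horn and in 4 of 5 placebo horns, and AQP3 spreads from -3.35 to 4.11 among treated gilts.

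KCNN4 gives epithelia the potassium exit that sustains chloride secretion. Control arrays stood at -3.60, -2.96 and -2.33, placebo horns at -1.06, -1.33, -1.94, -2.78 and -1.57, and hormone horns at -3.59, -2.23 and -0.90. Both horns of gilt 36 were high and the hormone horns of gilts 40 and 41 lay within the control range. The difference was 0.67 ± 0.40 in hormone horns (adjusted p = 0.289), and a second, dimmer probe that did not follow the first (r = 0.075 over 19 arrays) gave 0.24. KCNMA1, the calcium-activated channel of large conductance, differed by -0.23 ± 0.25 (adjusted p = 0.591), and its highest value, -3.21, was in the P horn of control gilt 9, against -4.88 to -3.83 in the other 7 control arrays. KCNAB1, a cytoplasmic subunit of voltage-gated potassium channels named after its values were seen, was higher in the hormone horn of 5 of 5 gilts, by 0.079 to 1.18 (0.57 ± 0.20, adjusted p = 0.368). The other 9 potassium channel genes differed from control gilts by -0.25 to 0.14 in hormone horns and none passed.

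Of the voltage-gated calcium channel subunits 0 of 3 passed in limma in any comparison. CACNB4, a cytoplasmic beta subunit, had the lowest difference (-0.35 ± 0.28), with levels of -2.36, -2.08 and -0.84 in control arrays and -2.76, -2.34 and -1.12 in hormone horns. Control gilt 14, the P horn of control gilt 9 and gilt 47 were high, and the groups overlapped. CACNA2D1, the subunit that carries these channels to the membrane, had the highest difference at -0.014 ± 0.13, measured on 18 arrays. RYR1, the calcium release channel of muscle, stood at -3.63, -3.00 and -2.65 in control arrays and at -4.38, -3.52 and -2.67 in hormone horns, and the groups overlapped. The difference was -0.48 ± 0.22 (adjusted p = 0.172), or -0.65 without gilt 36 (adjusted p = 0.0326), while a dimmer probe of the gene was lower by 1.84 and passed (a difference of -1.84, adjusted p = 0.00679).

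Of the 4 chloride channel genes 1 passed. CLCN5 stood at -7.55, -6.46 and -6.10 in control arrays and at -6.12, -5.59 and -5.29 in hormone horns, with placebo horns at -6.37, -5.72, -5.95, -6.03 and -5.68. The hormone horn of gilt 41 and the placebo horn of gilt 36 reached into the control range, and the lowest value was the L horn of control gilt 14. The probe was dim: 5 of 8 control arrays and 11 of 11 arrays of treated gilts were well above background. A second probe of the gene rose by 0.80 (adjusted p = 0.0463). Within scan days its differences were 0.86, 0.83 and 0.76. With normexp background correction the difference of the first was 0.015 (adjusted p = 0.976), with the horn mark as a term it was 0.77 (adjusted p = 0.0589), and the call also ended without any one of gilts 9, 14, 28, 38 and 44, the hormone horn of gilt 36 or the P horn of control gilt 9 (adjusted p = 0.0875, 0.0687, 0.0688, 0.0616, 0.0664, 0.0519 and 0.0528).

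CFTR, the cyclic AMP-gated chloride channel of the apical membrane, stood at -4.63, -4.06 and -3.30 in control arrays, -2.89, -4.81, -3.07, -3.57 and -2.46 in placebo horns and -5.69, -3.27 and -2.44 in hormone horns. Gilt 40 had the lowest level of all arrays, both horns of gilt 38 lay below every control array, and both horns of gilts 36, 41 and 47 lay above the control range, so that treated gilts spread to either side of control gilts. The difference was 0.40 ± 0.46 in hormone and 0.52 ± 0.48 in placebo horns (adjusted p = 0.626 and 0.535), and the 2 CFTR probes followed each other (r = 0.987). CLCA1, a secreted regulator of chloride conductance, differed by 0.20 ± 0.42 and CLIC5, a chloride channel-like protein tied to the cytoskeleton, by -0.28 ± 0.16, neither passing.

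AQP1 was the aquaporin that passed. It stood at -4.13, -3.26 and -2.68 in control arrays, at -2.56, -2.62, -1.58, -2.95 and -1.23 in the placebo horns of gilts 36, 38, 41, 44 and 47, and at -2.23, -2.06 and -0.95 in hormone horns. Every hormone horn lay above every control array, and of the placebo horns gilt 44 lay within the control range. Within gilts the horns did not differ in one direction (0.46, 0.40, -0.34, 0.94 and -0.96), and gilt 40 had the highest level. Of the endothelial markers, VWF, CDH5 and ENG passed upwards in hormone horns (3 of 5), with a median of -0.15 to 0.36 in control arrays, -0.095 to 1.16 in placebo and 0.32 to 0.96 in hormone horns. Their part in the AQP1 result was not tested. AQP1 did not pass without control gilt 9 or 14 (adjusted p = 0.0618 and 0.0765), and within scan days its differences were 1.32, 1.99 and 0.74.

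AQP3, which passes glycerol as well as water, varied most between treated gilts of all 46 genes. Control arrays stood at 0.21, 0.75 and 1.87. In the placebo horns of gilts 36, 38, 41, 44 and 47 AQP3 was at 3.53, -0.34, 0.76, 1.33 and -1.30, and in their hormone horns at 4.11, -0.64, 1.01, 1.07 and -2.03, with -3.35 in gilt 40. Both horns of a gilt were alike, gilt 36 lay far above and gilts 38, 40 and 47 below all control arrays. From gilt 40 to gilt 36 the gilt means spanned 7.17 log2 units (144-fold), with an SD of 2.49 over 6 treated gilts against 0.32 over 4 control gilts, and the second AQP3 probe followed the first (r = 0.998). Of 3010 genes with a symbol, 18 (0.598%), AQP3 itself among them, had an SD over treated gilts at least as large. The mean difference from control gilts was therefore imprecise, at -0.83 ± 0.87 in hormone horns (adjusted p = 0.579). The epithelial marker median was 1.07 in the hormone horn of gilt 40, where AQP3 was lowest, and 0.81 in that of gilt 36, where it was highest. The part of these markers in the AQP3 spread was not tested.

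AQP11, an aquaporin of intracellular membranes, stood at 1.56, 2.04 and 2.25 in control arrays, at 2.30, 1.14, 1.08, 1.44 and 0.39 in placebo horns and at 0.30, 1.30 and 2.42 in hormone horns. As with AQP3, gilt 36 was highest and gilts 40 and 47 lowest, and both horns of each gilt with a pair were within 0.51 of each other. AQP11 differed by -0.75 ± 0.29 in hormone horns (adjusted p = 0.104), and by -0.99 without gilt 36 (adjusted p = 0.0174).

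AQP9, which passes glycerol, urea and water and is made by leukocytes and liver, was well above background on 6 of 19 arrays only, 1 control, 2 placebo and 3 hormone arrays. Its highest levels were in gilt 47, at -5.59 in the placebo and -6.26 in the hormone horn. The median of 6 neutrophil markers was highest there too, at 7.50 and 6.55 above control gilts, while it ran from -0.82 to 0.53 in control arrays, -0.70 to 7.50 in placebo and 1.75 to 6.55 in hormone horns. PGLYRP1 alone of the 6 was lower than in control gilts, by 1.39 in hormone and 1.48 in placebo horns. Outside gilt 47 AQP9 went with that median in some arrays and not in others. In gilt 41 AQP9 was at -6.89 in the placebo and -6.56 in the hormone horn, with medians of 4.40 and 5.31. Gilt 36 had -8.56 and -8.38, with medians of 1.36 and 1.75. The L horn of control gilt 46 had -6.57 at a median of 0.24. In gilt 38 AQP9 was at -7.49 and -7.17, with medians of 4.69 in the placebo and 4.71 in the hormone horn. Gilt 47 was also the highest of all arrays in the medians of 9 T and NK cell markers (2.64 in the placebo and 2.68 in the hormone horn), 3 B and plasma cell markers (3.32 and 3.07) and 5 macrophage and dendritic cell markers (3.02 and 2.90), against -0.59 to 0.43 for these 3 lists in control arrays. Of the 9 T and NK cell markers GZMB alone passed in hormone horns, and it fell (-0.94, limma adjusted p = 0.0104). The part of these markers in the AQP9 levels was not tested. AQP9 did not pass in hormone horns (0.71 ± 0.52, adjusted p = 0.405). AQP5, a water channel of secretory epithelia, was steady at -2.26, -1.92 and -1.68 in control arrays and -2.44, -1.96 and -1.74 in hormone horns (-0.12 ± 0.16, adjusted p = 0.681). AQP5 lies between AQP2 and AQP6 on the chromosome, per the gene order of the Sscrofa11.1 annotation, and AQP2, AQP6, AQP8 and AQP10 did not pass either, at -0.33 to 0.15.

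Among TRP channels 0 of 5 passed in limma. TRPC1, a calcium-permeable channel linked to store-operated entry, stood at -0.50, 0.070 and 0.26 in control arrays and at -1.44, -1.17 and 0.20 in hormone horns, and at -0.23, -0.18, -0.15, -0.16 and -1.82 in placebo horns. Both horns of gilt 47 and the hormone horns of gilts 36, 40 and 44 were low, gilt 38 was not, and the groups overlapped. The difference was -0.88 ± 0.33 (adjusted p = 0.0884), -0.89 on a second probe (r = 0.991), and -1.10 without gilt 38, where TRPC1 passed (adjusted p = 0.0363). TRPC4, of the same subfamily, ranged over treated gilts from -6.70 in gilt 44 to -3.67 in gilt 47 and was well above background on 14 of 19 arrays (0.65 ± 0.54, adjusted p = 0.463). TRPV4, a channel gated by swelling and warmth that is found in epithelia, differed by 0.30 ± 0.20 in hormone horns (adjusted p = 0.355) and -0.013 ± 0.21 in placebo horns. TRPC7 and TRPM7 differed by -0.25 and -0.12 in hormone horns and overlapped between groups.

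Treated gilts varied more among themselves than control gilts for 31 of the 46 genes (67.4%), against 82.2% of genes with a symbol. The median SD over 6 treated gilts was 0.32 and that over 4 control gilts 0.25, beside 0.34 and 0.20 for genes with a symbol. After AQP3 the largest SD over treated gilts were those of TRPC4 (1.29), CFTR (1.23), AQP9 (1.00), KCNN4 (0.85), KCNN3 (0.78) and AQP11 (0.75). AQP3, AQP11 and CFTR were all lowest in gilt 40, the gilt with the hormone horn only.

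**Figure D3:**
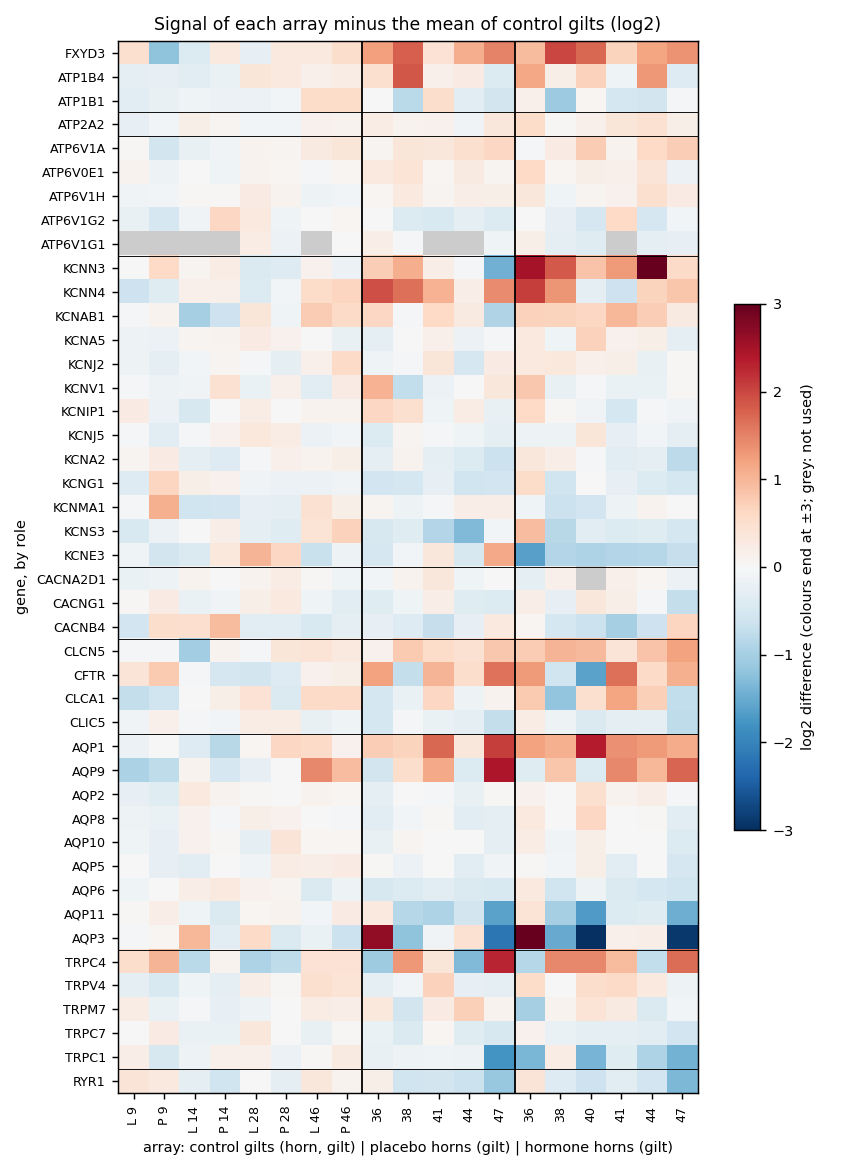
Log2 signal of each array minus the mean of control gilts for 44 of the 46 genes in rows, grouped by role, with the 8 control arrays, 5 placebo horns and 6 hormone horns in columns; red is higher, blue lower, colours end at 3 and grey cells were not used. AQP3 is deep red in both horns of gilt 36 and blue in gilts 40 and 47, and KCNN3 is red in hormone horns.

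Where a gene had several probes, they mostly pointed one way: of 19 genes with more than 1 probe tested in hormone horns, 15 had probes of one sign and 4 (ATP6V1G1, CLIC5, KCNG1 and RYR1) had both. A probe passed for 5 of the 19, and for FXYD3 and CLCN5 this was the brightest probe as well. The shares among all genes with several probes were not computed, so these counts have no background beside them. A gene with more probes, such as ATP2A2 with 6, also has more chances that 1 passes. For ATP2A2, RYR1 and KCNA5 only dimmer probes passed. KCNA5, a voltage-gated potassium channel named after its values were seen, differed by 0.14 on its brightest and by 1.04 on its other probe (adjusted p = 0.0134), and both followed each other poorly (r = 0.294).

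**Figure D4:**
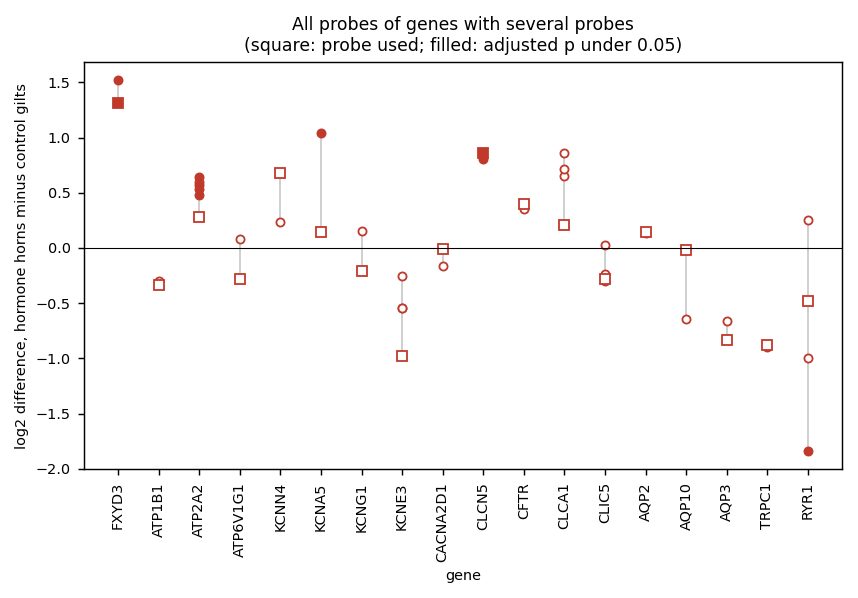
Log2 difference of hormone horns from control gilts for every probe of 18 of the 19 genes with several tested probes, squares for the brightest probe and filled symbols for an adjusted p under 0.05. Both probes of FXYD3 and CLCN5 are filled, ATP2A2 has 4 filled dimmer probes, and the 4 RYR1 probes spread from -1.84 to 0.26.

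Of 77 other genes of ion and water transport, listed with earlier results of these data known, 26 were measured. In hormone horns 7 of 26 rose, against 12.7% of genes with a symbol, and 0 fell: SGK1, a kinase that raises the activity of sodium channels and pumps (1.72, adjusted p = 0.0029), the store-operated calcium channel ORAI1 (0.76, adjusted p = 0.00861), the mitochondrial porins VDAC1 and VDAC2 (0.71 and 0.58), the potassium chloride cotransporter SLC12A4 (0.86), the sodium bicarbonate cotransporter SLC4A4 (1.26) and the membrane carbonic anhydrase CA4 (2.25). In placebo horns SGK1 and ORAI1 rose (1.54 and 0.78, limma adjusted p = 0.0213 and 0.0251) and none fell. That is 2 of 26, against 4.49% of genes with a symbol in either direction. Both calls in placebo horns ended with 1 mean per control gilt, where 0 of 39097 probes passed. The median of the 26 was 0.38 in hormone horns, against 0.17 for genes with a symbol and -0.016 for the 46 genes. Of the 2 genes left out by the rule, the sodium pump regulator FXYD2 fell by 2.59 ± 0.72 in hormone horns (adjusted p = 0.0281), opposite in direction to FXYD3. Its hormone horns overlapped the control arrays, and in placebo horns its difference of -2.02 did not pass (adjusted p = 0.114). The plasma membrane calcium pump ATP2B1 stood at -0.18 in hormone horns (adjusted p = 0.512).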

How the data were processed

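Total RNA of endometrium from 10 gilts was labelled with Cy3 and hybridised to 19 one-colour Agilent arrays, per the labels' protocols. The deposited scanner files hold linear intensity per spot, background-subtracted within each array by Feature Extraction 10.7.3.1 per the file headers, and version 9.1 is listed in the submitters' processing notes. The authors' deposited value table holds log2 values of the same arrays (r of 0.996 to 0.999 with the scanner values), with medians of 7.72 to 7.83. How that table was normalized is not stated in those sources, and it was used as an alternative only.

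Outlier-flagged values (1160 over all tested probes) and control spots were dropped, and replicate spots of a probe averaged. Values were log2 processed signals, less the log2 75th percentile of each array, and the test covered the 39098 probes that 4 or more arrays showed well above background. Saturated spots numbered 0, and the number of arrays limits the precision. Gene symbols came from RefSeq accessions without version, matched to the Sscrofa11.1 table (6768 of 43603 probes had 1 symbol). The brightest probe with at least 10 unflagged arrays stood for a gene.

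limma 3.58.1 in R 4.3.3 fitted 4 groups with the gilt as a random block (statmod 1.5.0, correlation 0.536), with trended eBayes, two-sided tests and Benjamini-Hochberg adjustment over all tested probes. Horns with the same gilt number came from one animal, and their deviations from group means correlated at 0.336 to 0.795 in treated and 0.403 to 0.627 in control gilts, against at most 0.143 and 0.0181 with other gilts. Comparisons with control gilts are between animals, while the model treats arrays as its units.

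The genes and lists were chosen with earlier results of these data known. Results of some genes are not reported here. Named are otherwise all genes that passed, the highest and lowest of each role group of at least 3, and a list of well-known members. Alternatives covered scaling, background, filters, blocks, scan day, probes and left-out gilts. Normexp on median signals and leaving out the P horn of control gilt 9 were chosen after seeing the data. The reference tables used here hold no sequences, so none is printed.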

Additional observations from a re-analysis of the deposited data

Results flagged for a closer look

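In 97 groups of 4 to 6 arrays of the named genes, 6 arrays lay far from the others of their group, with a gap to the nearest of them that took up most of the group's range. Chance gives such a gap in about 1 in 20 groups, and no cause was tested. AQP1 in the hormone horn of gilt 40 stood at -0.95, against -2.23 to -1.93 in the other 5 hormone horns. ATP6V1G1 in the hormone horn of gilt 36 stood at 4.99, against 4.46 to 4.57 in the other hormone horns with an unflagged spot. KCNE3 in the same horn stood at -0.20, against 0.52 to 0.75. FXYD3 in the P horn of control gilt 9 stood at 1.74, against 3.24 to 3.47 in the other 3 P horns of control gilts. TRPC1 in the placebo horn of gilt 47 stood at -1.82, against -0.23 to -0.15 in the other 4 placebo horns, and in the hormone horn of that gilt it stood at -1.44. TRPV4 in the placebo horn of gilt 41 stood at -1.29, against -2.28 to -2.09.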

How the results depend on the processing

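Of 46 genes, 4 passed in hormone horns against control gilts and 0 in each other comparison, and 119 of 141 such counts under 31 alternatives stayed within 1.5 times. Counts of 0 that stayed 0 are among the 119, so this share says little about the 4 calls in hormone horns. In hormone horns the count was 7 with centring on RefSeq probes, 2 with only the compared groups in the fit, 9 with slide as the random block, 0 within scan days 1, 2 and 3, and 0 with each array's offset of RefSeq from contig probes as a term, where 0 probes passed at all. Leaving out a gilt or 1 horn gave 0 to 7. In placebo horns the count was 2 with RefSeq centring, 1 with normexp on median signals, 2 with no replicate block, 1 with scan day as a term, 3 with slide as the block and 1 with the mean of all probes of a gene, and leaving out a gilt or 1 horn gave 0 to 2. Between horns 1 gene, KCNN3, passed after quantile normalization. Fitted as a fixed replicate block, the gilt changed no call between horns. The cause of these changes was not tested, apart from fewer samples where gilts were left out or scan days split.

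Of 2232 differences of 25 genes under an alternative, 38 lost and 39 gained a call. None that passed on either side turned its sign. Only AQP1, CLCN5, FXYD3 and KCNN3 in hormone horns against control gilts had a call to lose, so all 38 losses were theirs. AQP1 kept its call under 24 of 30 alternatives, CLCN5 under 13 of 29, FXYD3 under 21 of 30 and KCNN3 under 23 of 30. Normexp on mean signals was not run, since the files used here hold median signals. AQP9, KCNV1, TRPC4 and CLCN5 were well above background on 5 to 16 of 19 arrays, which limits their values.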
